A study of Mus musculus with 39 samples.

Results

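The arrays compared were those of epididymal adipose tissue, the intra-abdominal fat pad beside the epididymis, from C57BL/6J mice fed a high fat, high sucrose diet with or without the lowest dose of KAL-1. KAL-1 is an aqueous ethno-botanical formulation known here by its code name only. HF5 was the diet with KAL-1 at 5 µg and HFC the same diet without it, so the diet was shared by both groups and KAL-1 was the difference between them. The members were the 10 arrays of weeks 3, 6, 9, 15 and 18, 5 of HF5 and 5 of HFC, out of 39 arrays in the series, which also held a low fat control (LFC) and KAL-1 at 20 µg (HF20) and 75 µg (HF75) on the high fat diet. The pair of week 12 was left out of the comparison because dim probes were raised on the HFC array of that week, of whose spots 94.5% were called well above background.

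The mice were weaned at 3 to 4 weeks of age and placed in groups of 30 animals. The high fat diet drew 60% of its calories from fat and the low fat diet 10%, and 5 animals of each group were killed every 3 weeks over 18 weeks. Each diet and week was represented by 1 array, although the submitters' design text speaks of 3 biological replicates per diet. Neither the number of animals behind an array is stated, nor whether the dose was given per animal or per body weight, and the weeks are counted from a later point than the first day of the diet. The 5 weeks stood in for replicates, so every SE and p-value below rests on how far values varied between weeks. This variation mixes the spread between animals with any change over time. Each SE also draws on the spread of all probes, toward which limma shifts that of a single probe. The contrasts with HF20 and HF75 took the spread from the 4 high fat groups together.

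White adipose tissue stores triglyceride in adipocytes, releases fatty acids between meals and secretes hormones such as leptin and adiponectin. Its stroma holds preadipocytes, capillaries, resident macrophages and lymphocytes, and a layer of mesothelial cells covers visceral fat. On a high fat diet adipocytes enlarge, and macrophages and lymphocytes gather around dying adipocytes and produce cytokines and chemokines. Chemokines such as Cxcl13 draw lymphocytes into tissue, and C-type lectin receptors such as Clec4d and Clec4e let myeloid cells sense microbial glycolipids and damaged cells.

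The promoters of 4 genes on which the results turn are shown first, as 300 bases from 250 before to 50 after the start of each gene in RefSeq on the build GRCm38.p6, read 5′ to 3′ on the gene's own strand. Cxcl13 and Clec4d were higher on the HF5 array in each of the 5 weeks, Clec4e is the neighbour of Clec4d in the same receptor family, and Ckm was lower in each of the 5 weeks. The windows are chr5:95956689-95956988 on the plus strand for Cxcl13, chr6:123261857-123262156 on the plus strand for Clec4d, chr6:123289822-123290121 on the minus strand for Clec4e and chr7:19410844-19411143 on the plus strand for Ckm. The Clec4d and Clec4e windows are 27665 bases apart. Capitals mark matches on either strand to an E box, CAGCTG, which 16.3% of the 32851 promoter windows hold, and to the letters TATANA, written for the basal promoter element of that name, which 24.7% hold. Matches that overlap are capitalised as 1 run.
Cxcl13: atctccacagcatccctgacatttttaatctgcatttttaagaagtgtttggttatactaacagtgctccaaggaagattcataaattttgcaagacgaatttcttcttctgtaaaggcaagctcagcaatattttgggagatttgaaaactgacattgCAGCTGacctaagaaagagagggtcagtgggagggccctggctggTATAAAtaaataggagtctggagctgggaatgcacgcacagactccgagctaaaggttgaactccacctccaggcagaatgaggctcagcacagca
Clec4d: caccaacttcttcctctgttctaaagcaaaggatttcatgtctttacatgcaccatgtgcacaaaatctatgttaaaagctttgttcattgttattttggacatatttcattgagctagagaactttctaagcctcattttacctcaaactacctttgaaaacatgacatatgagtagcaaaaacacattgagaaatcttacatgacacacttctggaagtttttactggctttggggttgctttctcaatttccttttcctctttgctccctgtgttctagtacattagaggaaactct
Clec4e: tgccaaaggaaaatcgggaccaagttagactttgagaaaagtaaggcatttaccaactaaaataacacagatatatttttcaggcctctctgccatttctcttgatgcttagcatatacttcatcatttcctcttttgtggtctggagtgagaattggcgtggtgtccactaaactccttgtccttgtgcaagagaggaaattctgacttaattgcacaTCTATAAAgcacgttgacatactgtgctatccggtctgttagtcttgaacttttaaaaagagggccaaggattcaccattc
Ckm: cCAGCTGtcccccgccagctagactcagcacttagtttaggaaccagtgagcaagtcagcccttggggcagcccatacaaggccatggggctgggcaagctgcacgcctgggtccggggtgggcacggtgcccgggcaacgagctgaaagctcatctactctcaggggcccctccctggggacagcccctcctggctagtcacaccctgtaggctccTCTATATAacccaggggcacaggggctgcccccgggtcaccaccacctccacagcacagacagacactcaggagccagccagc
A match to TATANA began 46 bases before the start in Cxcl13, and the overlapping matches began 31 and 29 bases before it in Clec4e and 33 and 31 bases before it in Ckm. The E box lay 91 bases before the start in Cxcl13 and 249 bases before it in Ckm. The Clec4d window held neither motif. None of the 4 windows held the letters TGANTCA, an AP-1 site found in 7.81% of all windows.

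A level below is the log2 intensity of a probe minus the 75th percentile of its array, so that 0 is a bright probe and values near -6 are close to background. A difference is the HF5 level minus the HFC level of the same week, and a difference of 1 is 2-fold. Of the 10 arrays, 53.7% to 77.2% of spots were well above background, and both arrays of each week were scanned on the same day on different slides. The HF5 array of week 9 was the dimmest, with a 75th percentile of intensity of 119 against 489 to 968 on the other 9, so a level under -3.86 could not be told from background on it. The HFC array of week 3 stood apart from the other 9 in the median level of the immediate early genes, which was 1.65 on it and 4.81 to 5.45 on the others. The pair of week 6 stood apart in its low mesothelium markers, given with that list below. Adipoq, which encodes adiponectin, lay between 3.02 and 6.81 on all 10 arrays.

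Over 27282 probes well above background on at least 5 of the 10 arrays, 0 passed an adjusted p of 0.05 (limma with the week as a block and Benjamini-Hochberg adjustment), which is 0% of those tested, and the smallest adjusted p was 0.986. An unadjusted p under 0.05 was reached by 161 probes higher in HF5 (0.59%) and 335 lower (1.23%). The split depended on the scaling, with 335 of 592 such probes higher after quantile scaling and 467 of 599 after median scaling. The fitted difference was above 0 for 49% of probes, with a median of -0.01, and exceeded 2-fold either way for 1256 probes. The 95% interval of a difference had a median half-width of 0.92, or 1.89-fold, and lay wholly within 2-fold either way for 7310 probes (26.8%). The intervals of the remaining probes reached 2-fold or beyond. No gene is said below to have risen or fallen on KAL-1, and the values that follow are differences that did not pass the test.

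In single weeks the arrays differed widely. More than 2-fold apart were 40.9% of probes in week 3, 23.7% in week 6, 45.2% in week 9, 18.3% in week 15 and 19.8% in week 18. Of these, 6143 were higher in HF5 and 5013 lower in week 3, and 7479 and 4858 in week 9. Lower ones prevailed in the other weeks, with 1694 higher and 4774 lower in week 6, 862 and 4117 in week 15 and 2156 and 3249 in week 18. The weeks did not share a common direction: across 27167 probes, the Pearson correlation of the differences was 0.30 between weeks 3 and 9 and 0.19 between weeks 6 and 15, and it was -0.23 between weeks 3 and 18 and -0.22 between weeks 3 and 15. These are descriptions across probes, which share the arrays and are not independent. In all 5 weeks 531 probes were higher in HF5 (1.95%) and 470 lower (1.72%). The 5 HF5 levels lay wholly above the 5 HFC levels for 19 probes (0.0696%) and wholly below them for 35 (0.128%).

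Since no probe passed, the genes named here are the 10 in each direction with the smallest unadjusted p among named genes of 1 sign in all 5 weeks. They were thereby chosen on the differences shown, and each had an adjusted p of 0.986 (limma), with 0.888 as the lowest under any other setting tried.

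The immune genes among them are described first. Cxcl13, the chemokine that guides B cells into follicles, had HFC levels of -4.92, -1.45, -3.90, 0.20 and -0.42 in weeks 3, 6, 9, 15 and 18 and HF5 levels of -1.78, -0.91, -1.76, 3.24 and 0.81. The HF5 array was higher in each week although the groups overlapped, and both groups were highest in weeks 15 and 18. The difference was 2.02 ± 0.45 (SE, 5 pairs), or 4.05-fold, and ranged from 0.54 in week 6 to 3.14 in week 3. On the LFC arrays of weeks 6, 9, 15 and 18 Cxcl13 stood at 0.43, -2.10, 2.30 and 0.32, above HFC in each of those weeks.

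Clec4d, the myeloid lectin receptor, had HFC levels of -1.74, -1.32, -0.54, 0.71 and -0.68 and HF5 levels of -1.01, -0.21, 1.23, 2.22 and 0.25 in the same order of weeks. Again the groups overlapped while every week kept the order, and both diets peaked in week 15. Its difference was 1.21 ± 0.30 (SE, 5 pairs), or 2.32-fold, with single weeks between 0.74 and 1.76. Clec4e, its neighbour on chromosome 6, differed by 1.28 ± 0.49 (limma, adjusted p = 0.986), with weekly values of 3.22, -0.13, 1.01, 1.67 and 0.63, so that week 6 went the other way.

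Hormones and secreted proteins made up a further group of the higher genes. Stc1, the glycoprotein hormone stanniocalcin, had HFC levels of -2.25, -0.77, -2.09, -0.30 and 0.19 and HF5 levels of -0.69, -0.23, -1.10, 1.15 and 0.72. The difference of 1.02 ± 0.31 (SE) was seen on its other probes too, at 1.50 and 0.53. Rln1, the hormone relaxin, was dim, with 2 of 5 HFC and 4 of 5 HF5 arrays well above background. Its levels ran from -7.35 to -4.32 on HFC and from -5.47 to -2.77 on HF5, and the difference of 1.54 ± 0.29 (SE) was the one with the smallest p. Scgb3a1, a secretoglobin of epithelial secretions, differed by 1.19 ± 0.35 (SE), with -4.47 on the HFC array of week 3 against -2.87 to -2.66 on the other HFC arrays. Its difference was 0.78 without weeks 3 and 6.

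Enzymes and RNA regulators followed. Rnf144b, an E3 ubiquitin ligase, had HFC levels of -2.02, -2.15, -0.73, -0.64 and 0.05 and HF5 levels of -0.74, -0.58, 0.70, -0.05 and 1.18. In both groups the level was higher from week 9 on than before, and the weekly difference stayed between 0.59 and 1.56 around a mean of 1.20 ± 0.29 (SE), or 2.29-fold. Nuak2, a kinase related to AMPK, had HFC levels of -1.62, 0.03, -0.08, -0.24 and -0.26 and HF5 levels of -0.41, 0.59, 1.61, 0.47 and 0.61, a difference of 1.00 ± 0.30 (SE). All HF5 levels but that of week 3 were above every HFC level. Ago4, an argonaute protein of small RNA silencing listed on the array as Eif2c4, differed by 1.02 on the named probe but by 0.02, -0.43 and -0.10 on its other probes, so the probes of this gene disagreed. Fam71f2 differed by 1.18 ± 0.36 (SE). Cstdc2, a cystatin domain gene listed as 9230104L09Rik, differed by 2.15 ± 0.68 (SE), with 4.56 in week 3 and 0.11 in week 9.

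**Figure D1:**
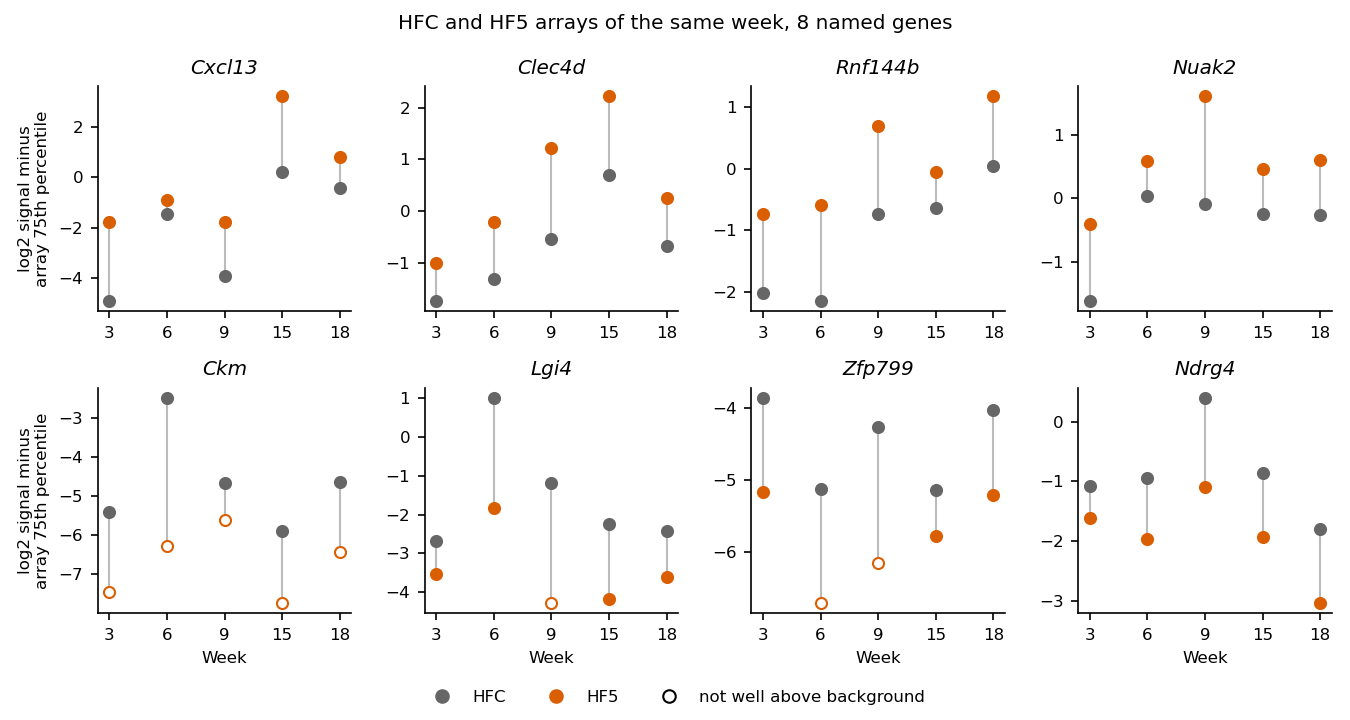
Levels (log2 intensity minus the 75th percentile of the array) of 8 named genes by week, with HFC in grey, HF5 in orange and a line joining the pair of each week. Open points are not well above background. The HF5 point is the upper one of all 5 pairs for Cxcl13, Clec4d, Rnf144b and Nuak2 and the lower one of all 5 pairs for Ckm, Lgi4, Zfp799 and Ndrg4, and the 2 groups are wholly apart for Zfp799.

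The genes lower in HF5 were dimmer. Ckm, the muscle creatine kinase, had HFC levels of -5.41, -2.48, -4.66, -5.88 and -4.64, well above background on all 5, and HF5 levels of -7.46, -6.26, -5.61, -7.73 and -6.43, well above background on none. Ckm therefore passed the filter, 5 of 10 arrays, through its HFC arrays alone, so the choice of probes itself favoured a lower level in HF5. With the lowest measurable signal of each HF5 array taken in place of its dimmer value, Ckm was at least 1.74-fold lower in HF5. The measured difference was -2.08 ± 0.43 (SE). Of the 13 skeletal muscle markers tested, Ckm included, 8 were lower and 5 higher with a median of -0.12, and Actn3, a fast muscle actinin, was the other one at an unadjusted p under 0.05 (limma), at -1.07 ± 0.44 (SE). The list's medians by week were 0.34, -1.89, 0.36, -0.63 and 0.34, and 0 of 13 genes were higher in week 6 and in week 15. The part of muscle tissue in the Ckm difference was not tested. The HFC array of week 6 held the highest median level of the list, 0.88 against -3.03 to -1.41 on the other 9. The difference of Ckm was -1.53 without weeks 3 and 6. HF75 had 0 of 5 arrays well above background for Ckm as well, and HF20 had 2 of 5.

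Lgi4, which Schwann cells secrete during myelination of peripheral nerve, had HFC levels of -2.68, 1.00, -1.19, -2.24 and -2.43 and HF5 levels of -3.53, -1.84, -4.28, -4.18 and -3.60. Every week kept the order and the difference was -1.98 ± 0.42 (SE), while another probe of the gene gave -0.71 and was higher in HF5 in 2 of 5 weeks. The HFC array of week 6, where Lgi4 was highest, also held the highest median of the nerve and Schwann markers, 1.67 against -3.61 to -0.61 on the other arrays, and the part of nerve in this value was not tested. Zfp799, a zinc finger gene, was the only one of these 20 genes with groups wholly apart, at -5.14 to -3.87 on HFC and -6.71 to -5.17 on HF5. Its difference was -1.32 ± 0.31 (SE), and 3 of 5 HF5 arrays were well above background. Among the other settings tried, the difference of Zfp799 nearest to 0 was -0.26.

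Ndrg4 was bright enough for all 10 arrays, with HFC levels of -1.07, -0.94, 0.39, -0.86 and -1.80 and HF5 levels of -1.61, -1.97, -1.10, -1.93 and -3.03. The difference was -1.07 ± 0.29 (SE), between -1.49 and -0.54 in single weeks. Abca6, an ABC transporter of the subfamily linked to lipid transport, differed by -1.49 ± 0.41 (SE), with -2.27 and -2.58 in weeks 3 and 6 and -0.43 and -0.67 in weeks 15 and 18. It was -0.87 without weeks 3 and 6. Efnb3, an ephrin ligand of Eph receptors, differed by -1.42 ± 0.32 (SE), Kcnj13, a potassium channel, by -1.39 ± 0.35 (SE), and Cmah, the hydroxylase that makes the sialic acid Neu5Gc, by -1.37 ± 0.35 (SE), with 2, 3 and 1 of the 5 HF5 arrays well above background. Another probe of Cmah gave -1.14. Sft2d3, a membrane protein of vesicle transport, differed by -1.41 on the named probe and by 0.43 and 0.31 on its other probes, which therefore disagreed. Olfr684, an olfactory receptor well above background on 4 of 5 HFC and 1 of 5 HF5 arrays, differed by -1.13 ± 0.31 (SE). Efnb3, Kcnj13 and Cmah were well above background on all 5 HFC arrays. These dim genes, like Ckm, met the filter mainly through HFC arrays, so the choice of probes favoured a lower level in HF5.

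**Figure D2:**
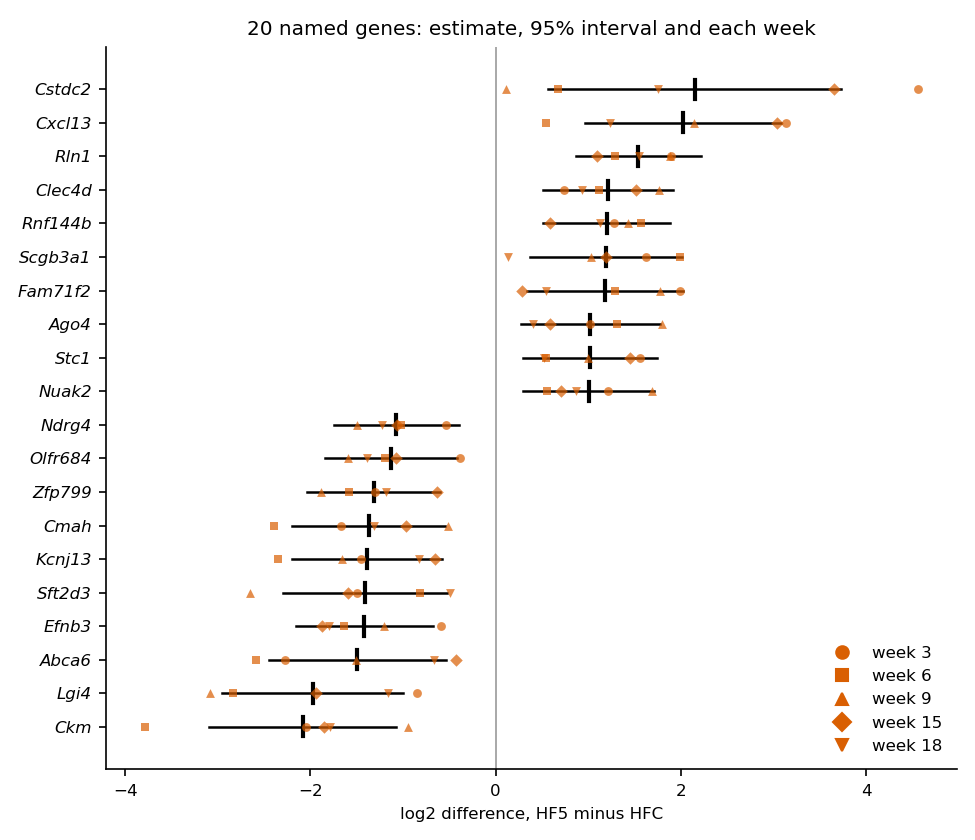
Differences (HF5 minus HFC, log2) of the 20 named genes, with the bar at the limma estimate, the line its 95% interval and a marker for each week. All points of a gene lie on 1 side of 0, which is how the genes were chosen, and the intervals run from 0.57 to 3.73 for Cstdc2 and from -3.09 to -1.08 for Ckm.

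Lists of genes were then read for the processes KAL-1 might touch and for the cells such a fat pad can hold. There were 31 process lists and 13 marker lists with 824 genes, of which 817 were on the array and 737 were tested. Each list is given by how many tested members were higher and by the median difference, beside 49% higher and a median of -0.01 over all probes. In bulk tissue, fewer cells of a type and less RNA per cell cannot be told apart.

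The cytokines and chemokines had the largest median among the process lists, 0.82, with 25 of 30 genes higher. Only Cxcl13 among the higher genes and Il18 among the lower ones reached an unadjusted p under 0.05 (limma). The median by week was 2.14, -0.21, 0.20, 0.36 and 0.35, so week 3 led it. In that week Il6 differed by 11.26, Cxcl2 by 9.08, Ccl4 by 7.62 and Tnf by 6.96, all inflammatory signals, while in the other 4 weeks Il6 lay between -0.77 and 0.07 and Tnf between 0.15 and 0.32. The list stood at -1.23 on the HFC array of week 3 and at 0.99 to 3.15 on the other 9 arrays. Without weeks 3 and 6 the median was 0.30, with 25 of 30 genes higher, and it stayed above 0 in the 11 other settings tried. Il18, a cytokine released after inflammasome activation, went against the list, with a difference of -0.80 ± 0.32 (SE) and a lower level in HF5 in each week. Ccl8, a monocyte chemokine, differed by 0.82 ± 0.37 (SE), from -0.07 in week 6 to 2.02 in week 9.

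The immediate early genes, transcription factors and signalling regulators that respond to many stimuli within minutes, were higher for 28 of 29 members, with a median of 0.57 and no member at an unadjusted p under 0.05 (limma). Here too week 3 had the largest value, with medians by week of 2.37, -0.21, 0.42, 0.15 and -0.12. Fos, the founding member, had HFC levels of 0.72, 5.76, 4.89, 5.37 and 4.75 and HF5 levels of 4.81, 4.93, 5.13, 5.46 and 4.06, so the pair was far apart in week 3 and within 1 of each other in the other 4 weeks. Gadd45b differed by 5.93 in week 3 and by -0.21 to 1.29 in the other weeks. Without weeks 3 and 6 the list's median was 0.19 with 22 of 29 higher. Fosl1, an AP-1 subunit, had the smallest p of the list, with a difference of 0.94 ± 0.41 (SE).

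The endothelium and angiogenesis genes were higher for 20 of 24 members, with a median of 0.52, and the medians ran 1.74, 0.92, 0.48, -0.10 and -0.28 over the weeks. Gpihbp1, which carries lipoprotein lipase to the capillary wall, was the one member at an unadjusted p under 0.05 (limma), with a difference of 0.98 ± 0.41 (SE) made of 1.65, 1.69 and 1.65 in weeks 3, 6 and 9 and of 0.17 and -0.25 in weeks 15 and 18. Cldn5, the tight junction claudin of endothelium, showed the same course, with 3.40, 0.68, 1.24, -0.09 and -0.23 (its probe was saturated on 4 of 10 arrays), and so did the adhesion molecule Esam, with 2.77, 1.31, 0.36, 0.25 and -0.30. Without weeks 3 and 6 the list's median was -0.11 and 9 of 24 were higher, while leaving out week 3 or week 6 alone gave 0.19 and 0.37.

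The adipocyte genes had a median of 0.07 with 15 of 23 higher, and its sign turned in 5 of 11 other settings. The weekly medians were -1.57, 1.29, 0.71, -0.26 and 0.72, so weeks 3 and 6 opposed each other. Lep, which encodes leptin and follows fat mass, had levels from -1.99 to 3.06 on HFC and from -2.72 to 2.55 on HF5, with -2.27, 2.21, -3.22, -1.81 and 0.55 as weekly differences and a fitted one of -0.91 ± 0.77 (SE). Pparg, the master regulator of adipocyte differentiation, differed by 0.57 ± 0.50 (SE). De novo lipogenesis (median -0.04, 9 of 20 higher), triglyceride synthesis (median -0.02, 5 of 12 higher) and fatty acid oxidation (median -0.03, 11 of 24 higher) shared the sharp low in week 3, at -2.12, -2.33 and -1.45. On the HFC array of that week the adipocyte list stood at 4.90, the highest of the 10 arrays, and the de novo lipogenesis list at 4.18.

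Within these lipid lists, Scd2, a stearoyl-CoA desaturase, was lower in HF5 in each week, with HFC levels of 4.06, 4.01, 1.82, 1.24 and 3.16 against 2.26, 2.62, 0.99, 1.24 and 2.68, although week 15 differed by only -0.01. Its difference was -0.90 ± 0.35 (SE), and -0.44 without weeks 3 and 6. G0s2, the inhibitor of the lipase that starts triglyceride breakdown, differed by -1.06 ± 0.41 (SE) with week 6 at 0.17, while the lipolysis list as a whole had a median of 0.10 with 14 of 20 higher. Pdk4, which spares glucose by inhibiting pyruvate dehydrogenase, was higher in each week by 0.06 to 1.54, a difference of 0.70 ± 0.33 (SE). Acss2, acetyl-CoA synthetase, varied from -5.92 in week 15 to 0.42 in week 18. In insulin signalling (median 0.06, 13 of 21 higher) the glucose transporter Slc2a1 was higher in each week by 0.06 to 2.32. The respiratory chain had a median of 0.07 with 20 of 32 higher, and its sign turned in 4 of 11 other settings.

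Cholesterol synthesis had 17 of 24 genes lower and a median of -0.24. Lss, lanosterol synthase, differed by -1.18 ± 0.46 (SE), with -2.79, -0.48, -1.75, -0.99 and 0.11 by week, and Cyp51, which demethylates lanosterol, by -1.11 ± 0.48 (SE), with -2.50, -1.16, -2.08, -0.26 and 0.46. Both were lowest relative to HFC in weeks 3 and 9, but the list as a whole was not low in week 9. Its medians by week were -1.12, -0.10, 0.50, -0.02 and 0.03, and 17 of 24 genes were higher in week 9. The list's median was 0.14 without weeks 3 and 6, with 15 of 24 higher. Leaving out week 3 alone gave 0.01 and leaving out week 6 alone -0.17, so the sign rested on week 3.

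Immune cell lists did not share a direction. The macrophage list had a median of -0.01 with 14 of 29 higher, made of opposing weeks at -0.61, -0.34, 0.41, 0.58 and 0.10. Its sign turned in 6 of 11 other settings, and without weeks 3 and 6 the median was 0.25 with 20 of 29 higher. Clec4e was its only member at an unadjusted p under 0.05 (limma), and Cd14, the co-receptor for endotoxin, differed by 0.91 ± 0.44 (SE). The T cell list had 15 of 19 genes lower and a median of -0.64, with 0.79, -3.18, 0.01, 0.32 and -1.16 by week, so that 3 of 5 weeks were above 0. In week 3, 16 of 19 genes were higher, and in week 6 every tested member was lower. The median stayed below 0 in all 11 other settings but was -0.11 without week 6. On the HFC array of week 6 the T cell list stood at -1.05 and the B cell list at 0.27, against -4.58 and -3.21 on the HF5 array of that week. Klrg1, an inhibitory receptor of effector T and NK cells, differed by -1.42 ± 0.47 (SE) and by -0.79 without weeks 3 and 6, and Cd3g, a chain of the T cell receptor complex, by -1.35 ± 0.67 (SE). The B cell list had a median of -0.04, with 1.29, -3.08, 1.23, 1.15 and -0.47 by week, and without weeks 3 and 6 it was 0.55 with 10 of 12 higher.

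The neutrophil list was higher for 12 of 15 genes, with a median of 0.30 and medians by week of 0.59, -1.65, 0.31, 2.64 and 0.35. Chil3, a chitinase-like protein of myeloid cells listed as Chi3l3, was higher in each week, by 0.07, 0.66, 0.30, 4.11 and 1.77. Trem1, a receptor that amplifies neutrophil and monocyte responses, differed by 0.77 ± 0.34 (SE). The neutrophil median was 0.99 with 14 of 15 higher without weeks 3 and 6. The mast cell list had 6 of 8 genes lower and a median of -0.67, which was -0.44 without week 6, -0.14 without weeks 3 and 6 and -0.09 with normexp. Its members included Cma1, the mast cell chymase, at -0.65 to -0.00 on HFC and -1.85 to -0.76 on HF5, groups wholly apart. Tpsb2, a mast cell tryptase, was lower in each week by 0.14 to 1.50, with a difference of -0.71 ± 0.32 (SE).

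Among structural genes, the extracellular matrix list had 24 of 35 members lower and a median of -0.22, below 0 in all 11 other settings. Its medians by week were 0.18, -0.48, -0.47, -0.05 and -0.02, so weeks 6 and 9 led it. In week 3, 18 of 35 genes were higher. Mmp2, a gelatinase, differed by -0.96 ± 0.39 (SE) with week 18 at 0.53, and Col5a2, a fibrillar collagen chain, by -0.80 ± 0.34 (SE) with week 15 at 0.17. Fbn1, the microfibril protein, was lower in each week by 0.09 to 2.16. The adipose progenitor list had 15 of 20 lower and a median of -0.19, with 0.06, -0.85, -0.35, 0.02 and -0.50 by week. In the cell cycle list 24 of 32 genes were lower with a median of -0.09. Its medians by week were 0.36, -0.14, 0.04, -0.14 and -0.74, and 24 of 32 genes were higher in week 3. Aurkb, a mitotic kinase well above background on 2 of 5 HF5 arrays, differed by -1.23 ± 0.42 (SE), most in week 18 at -2.83.

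Among the glucocorticoid, stress and xenobiotic lists, the oxidative stress list had a median above 0 in each week, at 0.15, 0.42, 0.33, 0.15 and 0.41, beside 0.03, -0.03, 0.28, -0.01 and -0.07 over all probes tested. Its fitted median was 0.17 with 16 of 23 genes higher, none at an unadjusted p under 0.05 (limma), and it was 0.29 with 19 of 23 higher without weeks 3 and 6 and -0.06 with normexp. Txnrd1, thioredoxin reductase, was its leading member and was higher in each week by 0.14 to 2.02. In the glucocorticoid list, Cdkn1a, the cell cycle inhibitor p21 induced by p53 and by glucocorticoid, had HFC levels of -0.47, 2.19, 1.08, 2.79 and 2.93 and HF5 levels of 2.28, 3.98, 3.40, 3.67 and 2.77, a difference of 1.52 ± 0.46 (SE) with only week 18 against it. Sgk1, a kinase induced by glucocorticoid, was higher in each week by 0.33 to 0.96. Hsph1, a chaperone of the HSP110 family, was lower in each week by 0.38 to 1.02, and Creld2, a gene of the ER stress response, was higher in each week by 0.27 to 0.66. The glucocorticoid list as a whole had a median of 0.12 with 9 of 16 genes higher and 7 lower, and its sign turned in 3 of 11 other settings. The ER stress and heat shock list had a median of 0.09 with 16 of 23 higher. Both lists had medians above 0 in 4 of 5 weeks, with the glucocorticoid list at -0.45 in week 6. In the xenobiotic list (median 0.11, 15 of 28 higher) Cyp1a1, the classical target of the aryl hydrocarbon receptor, had 1.42, 1.46 and 2.56 in weeks 3, 6 and 9 and -0.07 and -0.30 in weeks 15 and 18.

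**Figure D3:**
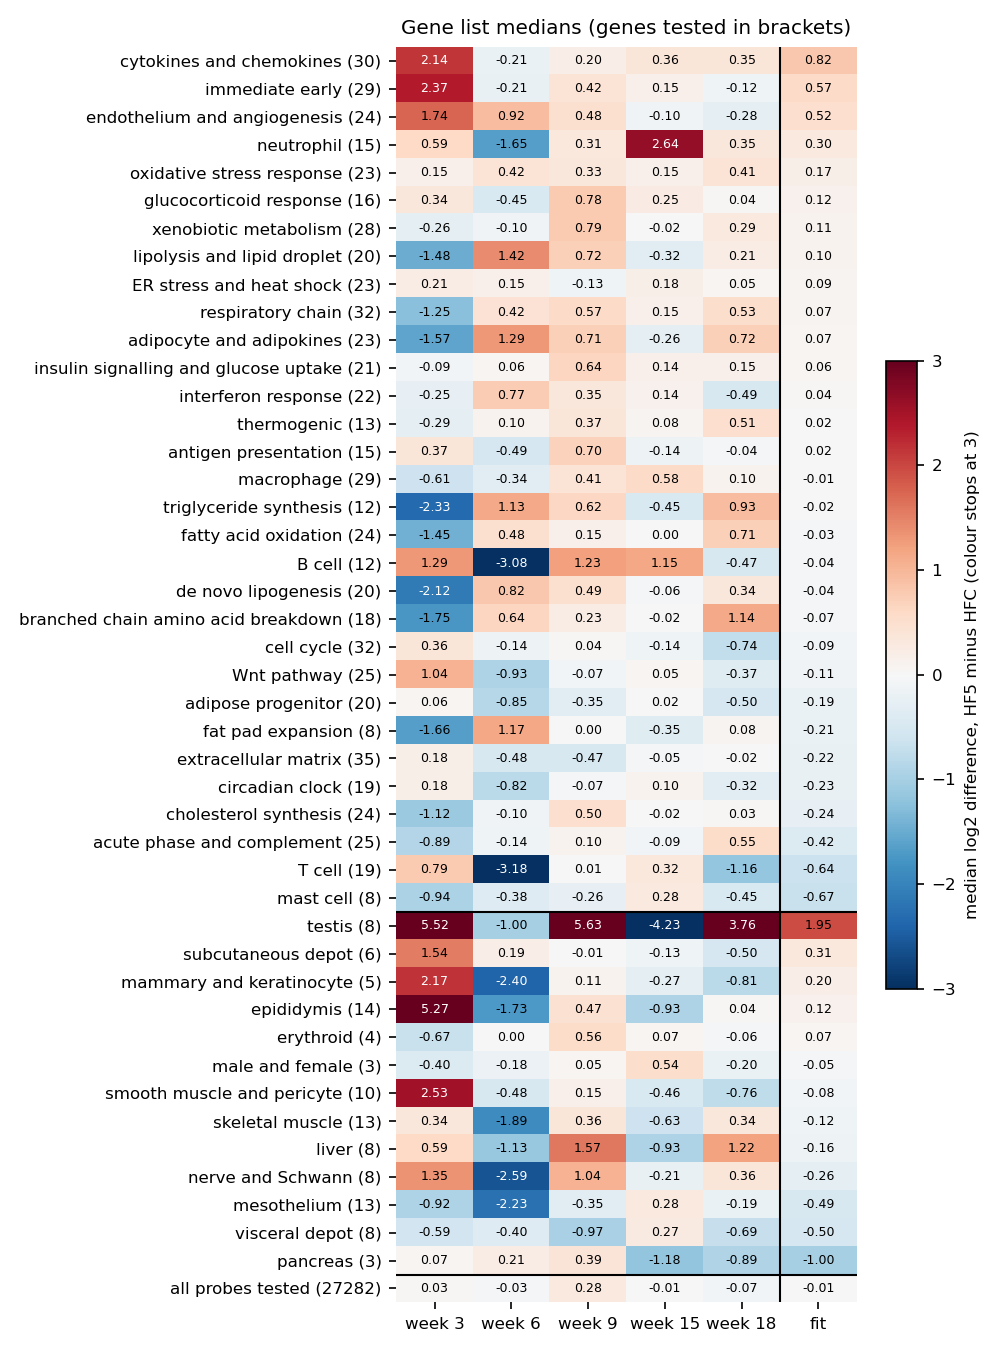
Median difference (HF5 minus HFC, log2) of each gene list in each week and in the limma fit, with the number of genes tested in brackets, process lists above, marker lists below and all probes in the last row. Red is higher in HF5 and blue lower, and the colour scale stops at 3. Most rows change colour between weeks: immediate early genes go from 2.37 in week 3 to -0.12 in week 18 and testis genes from 5.63 in week 9 to -4.23 in week 15.

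Markers of neighbouring tissue varied widely between arrays. The testis genes had levels (list median) of -4.71, -3.56, -4.82, -0.45 and -2.68 on HFC and of -0.41, -4.76, 0.41, -4.45 and 0.84 on HF5, so 3 of 5 HF5 arrays were high. All 8 tested genes had a difference above 0, with a median of 1.95 and no member at an unadjusted p under 0.05 (limma). Prm1, a protamine of sperm, stood at -3.98, -1.89, -3.65, 2.09 and -1.28 on HFC and at 2.78, -2.85, 3.28, -3.77 and 3.71 on HF5. Ldhc, the lactate dehydrogenase of sperm, differed by 3.27 ± 1.71 (SE) and Prm2 by 2.85 ± 1.75 (SE). The epididymis markers were at -7.70 on the HFC array of week 3 and at -1.64 on its HF5 partner, a median difference of 5.27 in that week and 0.12 overall. Crisp1, a secreted protein of the epididymal epithelium, went from -8.47 to 3.18 between those arrays. Cst12, a cystatin of the epididymis, differed by 2.62 ± 0.88 (SE), with 6.21 in week 3. How far tissue beside the fat pad entered any other difference was not tested.

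The mesothelium list was lower for 10 of 13 genes with a median of -0.49, and 3 members were lower at an unadjusted p under 0.05 (limma). Its levels were 1.09, -4.20, 0.21, 0.46 and -0.71 on HFC and -0.01, -6.89, -2.28, 0.54 and -1.68 on HF5, with week 6 low on both diets. Gpm6a differed by -1.46 ± 0.51 (SE), the uroplakin Upk3b by -1.36 ± 0.54 (SE) and the keratin Krt7 by -1.12 ± 0.46 (SE). Upk3b was at -7.70 and -7.92 on the arrays of week 6 and at 1.63 on the HFC array of week 3. Isl1, a transcription factor of visceral fat, had levels from -4.99 to -2.06 on HFC and from -6.72 to -2.64 on HF5 and was lower in 4 of 5 weeks. The visceral depot list that holds it had 7 of 8 genes lower and a median of -0.50. Without weeks 3 and 6 the medians were -0.15 for mesothelium and -0.54 for the visceral depot. Markers of liver, pancreas and erythroid cells had medians of -0.16, -0.999 and 0.07 over 8, 3 and 4 tested genes, and those of smooth muscle -0.08 over 10. The pancreatic lipase Pnlip was not well above background on any of the 10 arrays.

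**Figure D4:**
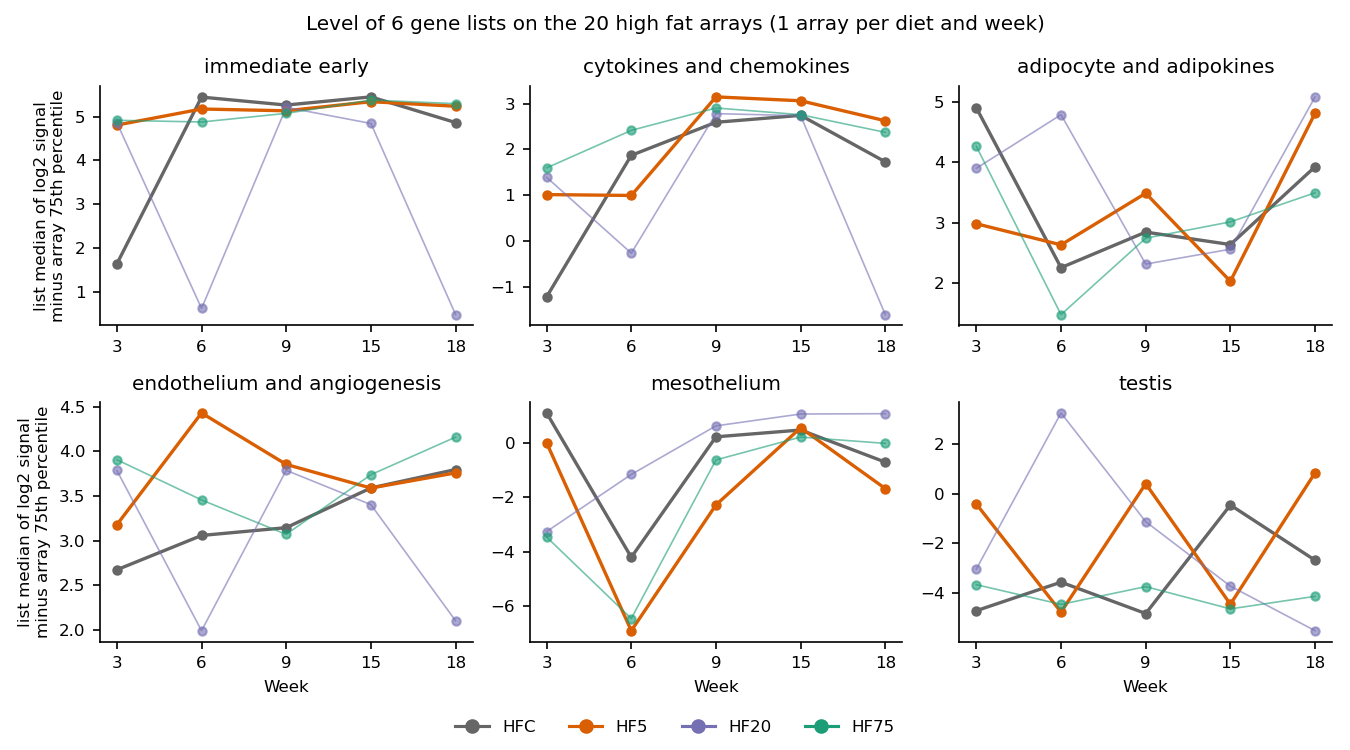
Median level (log2 intensity minus the 75th percentile of the array) of 6 gene lists on each array by week, with HFC in grey, HF5 in orange, HF20 in violet and HF75 in green, where the lines only join arrays of different animals. The immediate early list is at 1.65 on the HFC array of week 3 and at 0.63 and 0.49 on the HF20 arrays of weeks 6 and 18, and the mesothelium list is low in week 6 at -6.89 on HF5.

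Whether the difference changed from the early to the late weeks was asked by setting the paired differences of weeks 15 and 18 against those of weeks 3, 6 and 9. Of 27167 probes, 0 passed (0%), with a smallest adjusted p of 0.820 (limma), and an unadjusted p under 0.05 was reached by 406 probes whose difference was greater late (1.49%) and 883 whose difference was smaller (3.25%). With quantile scaling the difference was greater late for 673 of 1258 such probes. The median half-width of the interval was 1.88, so changes of a few fold could not be resolved with 3 weeks against 2. Per2, a core gene of the circadian clock, had differences of -1.82, -2.02, -1.49, 0.97 and 1.07 over the weeks. Folh1, a folate hydrolase, had -2.44, -1.98, -2.17, 1.00 and 1.20, and Ms4a4a, a macrophage tetraspan protein, had -2.17, -1.35, -0.92, 1.43 and 2.94. In the other direction, Aplnr, the apelin receptor, had 1.27, 1.69, 1.83, -1.53 and -1.33, and Dkk1, a secreted Wnt inhibitor, had 3.13, 1.67, 2.63, -0.58 and -1.64. Slc4a7, a bicarbonate transporter, had the widest swing of those named, from -6.51 in week 9 to 1.54 in week 18. Iqgap2, Ghrh, Mrgprb4 and Slc14a2 completed the 10 genes with the smallest p, with changes of 3.54, -3.25, -3.54 and -3.21. Some of these genes lay partly near background. Dkk1 was well above background on 2 of 5 HFC and 3 of 5 HF5 arrays, and Mrgprb4 on 3 and 3. For Iqgap2 the counts were 4 and 2, for Folh1 5 and 3 and for Ghrh 4 and 4. The others were well above background on every array of both groups.

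The higher doses allowed a direct comparison with 5 µg at matched weeks, in a fit over the 20 arrays of the 4 high fat groups. Both contrasts used the same HF5 arrays. Against HF20, 0 of 27173 probes passed (0%), with a smallest adjusted p of 0.337 (limma). An unadjusted p under 0.05 was reached by 2050 probes higher in HF5 (7.54%) and 1911 lower (7.03%), against 1477 higher and 1842 lower with quantile scaling and 424 higher and 840 lower without weeks 6 and 18. The immediate early list was higher in HF5 for 29 of 29 genes, 22 of them at an unadjusted p under 0.05, with a median difference of 1.68 and weekly medians of 0.27, 3.88, 0.41, 0.38 and 4.12. Those 2 large values belong to the HF20 arrays of weeks 6 and 18, on which the list stood at 0.63 and 0.49. Without those weeks, a choice made after seeing the data, the median was 0.31, 23 of 29 were higher and 0 reached an unadjusted p under 0.05. The endothelium list went from 0.92 with 21 of 24 higher to 0.08 with 16 of 24 higher when those weeks were left out. Markers of neighbouring tissue differed too. The epididymis list was lower in HF5 for 12 of 13 genes (median -1.96, week 6 -7.60, week 15 -2.83). The mesothelium list was lower for 11 of 13, at -4.19 in week 6 but 3.12 in week 3. Testis genes were at -8.45 in week 6, although 5 of 7 were higher in the fit. Without weeks 6 and 18 the epididymis median was -0.65 and that of mesothelium 0.59. The part of such tissue in this contrast was not tested.

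Single genes of 1 sign in all 5 weeks against HF20 were named by the same rule. Plod2, a lysyl hydroxylase of collagen, was higher in HF5 by 1.25, 1.25, 0.75, 1.06 and 1.69, a difference of 1.20 ± 0.24 (SE), and the midline protein Mid1 by 2.32 ± 0.49 (SE). Vps36, of the ESCRT sorting machinery, was higher by 1.24 ± 0.28 (SE), the kinase Abl2 by 1.37 ± 0.33 (SE) and the ribosomal protein Rpl39l by 1.98 ± 0.49 (SE). In the other direction, Rxrb, a retinoid X receptor, was lower in HF5 by -1.28, -1.08, -2.55, -1.39 and -1.40, a difference of -1.54 ± 0.30 (SE). Rnf123, a ubiquitin ligase subunit, differed by -1.42 ± 0.29 (SE) with weeks between -1.59 and -1.28, the narrowest of these. Slc22a17, Zfp777 and Dvl1, the last of them a Wnt signal transducer, differed by -1.69, -1.17 and -1.43. All of these had an adjusted p of 0.337 (limma). Each gene named as lower was well above background on 4 of 5 HF5 arrays, and each named as higher on 5 of 5. In the setting nearest 0 for each, Rxrb was at -0.51, Rnf123 at -0.65, Slc22a17 at -0.32, Zfp777 at -0.40 and Dvl1 at -0.49. The higher genes were then at 0.66 (Rpl39l) to 1.03 (Abl2).

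Against HF75, 0 of 27173 probes passed (0%), with a smallest adjusted p of 0.998 (limma), and 511 probes were higher in HF5 (1.88%) and 514 lower (1.89%) at an unadjusted p under 0.05, against 427 of 1113 higher with quantile scaling. The median half-width of the interval was 0.82 for both contrasts, so a difference under 1.76-fold between doses was within the error for a typical probe. Chmp5, of the ESCRT machinery, was higher in HF5 by 0.76, 1.14, 0.79, 0.62 and 0.37, and Rnf20, a histone ubiquitin ligase, by 0.92 ± 0.23 (SE). Krt14, a keratin of basal epithelium, was higher by 1.85 ± 0.50 (SE), the ER calcium binder Calu by 1.15 ± 0.32 (SE) and the SNARE protein Snap23 by 0.87 ± 0.25 (SE). Tia1, an RNA binding protein of stress granules, was lower by -0.72, -1.04, -1.53, -0.57 and -0.74. Scai, listed as A930041I02Rik, differed by -1.01 ± 0.18 (SE) but was well above background on 2 of 5 HF5 arrays. Sft2d3, Zfp758 and Lmbr1 differed by -1.53, -1.31 and -1.09. Weeks 6 and 15 opposed each other in the lymphocyte lists, with B cell medians of -2.90 and 2.74 and T cell medians of -2.82 and 2.13. The epididymis list was higher in HF5 for 12 of 13 genes (median 0.97) and the testis list for 7 of 7 (median 2.65). The mammary and keratinocyte list was higher for 4 of 5 (median 1.01). The part of such tissue in the genes named here, Krt14 included, was not tested.

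The levels of the leading genes on the 4 high fat diets are given side by side, and the HF20 and HF75 values were not compared with HFC because the same HFC arrays chose the genes. Cxcl13 averaged -2.10 ± 2.22 (SD, n = 5 arrays) on HFC, -0.08 ± 2.13 on HF5, -1.01 ± 1.68 on HF20 and -0.58 ± 2.24 on HF75. For Clec4d the means were -0.71 ± 0.93 (SD, n = 5), 0.50 ± 1.26, -0.57 ± 1.60 and 0.43 ± 1.50 in the same order. Stc1 had means of -1.05 ± 1.09 (SD, n = 5), -0.03 ± 0.95, -1.81 ± 1.78 and -0.76 ± 1.46, with HF20 at -3.70 and -3.77 in weeks 6 and 18. Zfp799 had means of -4.49 ± 0.61 (SD, n = 5), -5.80 ± 0.65, -4.08 ± 1.46 and -4.03 ± 1.09, and was chosen for lying lower on HF5 than on HFC. Ndrg4 had means of -0.85 ± 0.79 (SD, n = 5), -1.93 ± 0.71, -1.22 ± 0.66 and -1.58 ± 1.21.

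**Figure D5:**
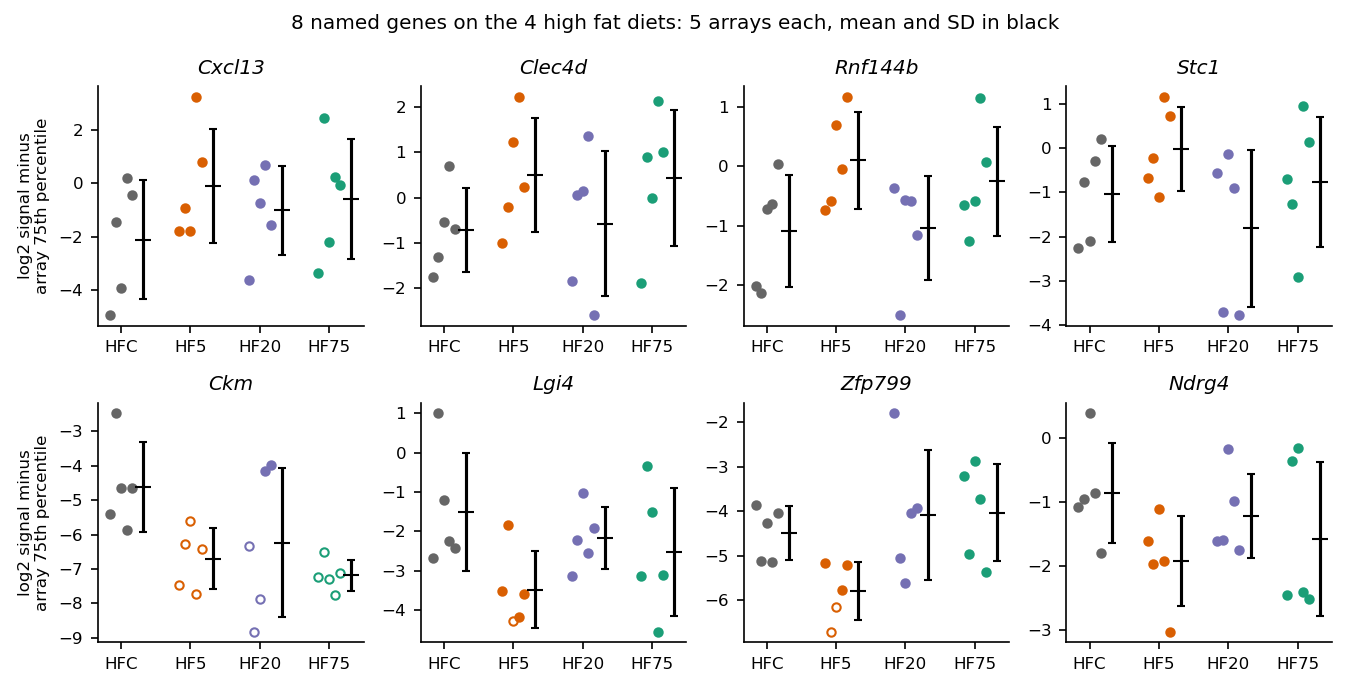
Levels (log2 intensity minus the 75th percentile of the array) of 8 named genes on the 4 high fat diets, 5 arrays each in order of week from left to right, with mean and SD in black and open points not well above background. The points of different diets overlap, with Cxcl13 at -2.10 ± 2.22 on HFC and -0.08 ± 2.13 on HF5.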

How the data were processed

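RNA was labelled with Cy3 and hybridised to Agilent mouse arrays. Per the file headers, the deposited scanner files hold intensity values from Feature Extraction 10.5.1.1, background-subtracted on each array with annotation on mm9 (the labels name version 9.1). The authors' deposited table holds log2 values normalised in GeneSpring GX, with LFC of each time point set to 0, and served as an alternative. The comparisons, genes and lists were chosen with earlier results of these data known.

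From gProcessedSignal of ControlType 0 spots, log2 values minus the 75th percentile of each array were taken, spots flagged as outliers (24 to 123 on the 10 arrays) were set to missing, and spots of a probe were averaged. Probes well above background on 5 of 10 arrays (10 of 20 with the other doses) were fitted in limma 3.58.1 (R 4.3.3) with week as a block, 2-sided, and adjusted by Benjamini-Hochberg over all probes tested, with a threshold of 0.05. The spots set to missing are left out of the fit. The week comes from the labels and coincides with the scan day, so a scan day block is the same fit. The correlation of the paired arrays' deviations from their group means was between -0.29 and 0.18. Named genes are the 10 per direction with the smallest p and 1 sign in all weeks (5 per direction for the other comparisons, where late against early weeks needed no shared sign), up to 3 genes per list with the smallest p, and defining markers. Other list genes were named after their values were seen. A list gene is represented by its brightest probe. Of 40628 probes, 69.3% were matched to RefSeq by accession. The number of arrays limits the precision. Scripts were tested on simulated data. Alternatives were quantile and median scaling, normexp, other filters, array weights, no block, week 12 added, the authors' table, the methods' t-test on paired differences and each week left out. Leaving out weeks 3 and 6, or weeks 6 and 18 against HF20, was chosen after seeing the data.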

Additional observations from a re-analysis of the deposited data

Results flagged for a closer look

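Among 128 sets of 5 values for named genes and list levels, 11 held an array far from the other 4, where chance alone gives about 1 in 20, or 6.4. The HFC array of week 3 accounted for 6 of them: Scgb3a1 at -4.47, Nuak2 at -1.62, and the list medians of the respiratory chain at 4.88, cytokines and chemokines at -1.23, immediate early genes at 1.65 and epididymis at -7.70. In week 6 the visceral depot list was low on both arrays, at -6.80 on HF5 and -5.24 on HFC, the nerve and Schwann list was high on HFC at 1.67, and Olfr684 was low on HF5 at -7.91. The pancreas list was low on the HF5 array of week 15 at -5.07.

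The endothelium and angiogenesis list had a median difference of 1.15 over weeks 3, 6 and 9, above 0 in each of them, and was below 0 in weeks 15 and 18. The pancreas list, with 3 tested genes, had 0.20 over the early weeks and was below 0 in both late weeks. The change of neither list as a whole between early and late weeks was tested. Of the 23 endothelium and angiogenesis genes tested one by one, 19 had a smaller difference late, 6 of them at an unadjusted p under 0.05 (limma). None passed after adjustment. Over all probes, 15083 of 27167 had a smaller difference late, and 883 (3.25%) did so at an unadjusted p under 0.05 (limma). The genes of the list share the same arrays and are not independent.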

How the results depend on the processing

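No probe passed an adjusted p of 0.05 in limma under any setting tried for the 4 comparisons. For HF5 against HFC, the 496 probes at an unadjusted p under 0.05 became 12 with normexp, 1483 with array weights (200 higher) and 807 with all 4 high fat groups in the fit, and 371 to 1146 with 1 week left out, the most without week 18. Without the replicate block there were 439. Median scaling moved the median of all probes from -0.01 to 0.11 and gave 467 of 599 probes higher, against 161 of 496 as reported, and quantile scaling gave 335 of 592. Normexp gave 510 probes against HF20 and 375 against HF75. Without weeks 6 and 18 there were 1264 against HF20. Leaving out 1 week gave 1681 (week 6) to 4594 against HF20, with 2371 without week 18, 630 (week 9) to 1216 against HF75, and 471 (week 18) to 4072 (week 6) for late against early weeks, with 717 without week 3 and 552 without week 15. Of named genes, Prm1 turned to -0.44 with array weights, and against HF75 Scai turned to 0.29 and Sft2d3 to 0.058 with normexp. The causes were not tested. Over 44 lists and 11 settings, 96 of 484 medians turned sign. The size of the dim lower genes moved as well. In the setting nearest 0 for each, Ckm was at -0.39, Sft2d3 at -0.33, Kcnj13 at -0.30 and Efnb3 at -0.28. Zfp799, Cmah and Olfr684 were at -0.26, -0.21 and -0.13. The brighter Ndrg4 and Lgi4 were at -0.67 and -1.03. Probes near background, and the dim HF5 array of week 9, limit the lower genes.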
